A study of Mus musculus with 4 samples.

Results

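The nuclear genes of oxidative phosphorylation were described in 4 coronal sections of the mouse brain, over areas of the section and between 2 maternal diets. Members were all features whose symbol begins with Ndufa, Ndufb, Ndufc, Ndufs or Ndufv, with Uqcr, with Cox4 to Cox8, or with Atp5, and 76 of the 19465 features met this rule. They comprised 35 subunits of complex I and its paralogues, 6 assembly factors of complex I that share the Ndufa prefix, 7 subunits of complex III, 15 of complex IV and 13 of complex V. The rule used symbols alone and no measured value. Among the symbols that would have met the rule but that no feature carried were Cox4i1, Cox5a, Cox6b1, Ndufa4 and Uqcrq, so these were not analysed. The subunits encoded by the mitochondrial genome were not analysed either, since the count tables held 0 features for them.

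Oxidative phosphorylation takes place in the inner mitochondrial membrane. Complex I (NADH dehydrogenase, Nduf genes) and complex II pass electrons to ubiquinone, complex III (cytochrome bc1, Uqcr genes) passes them to cytochrome c, and complex IV (cytochrome c oxidase, Cox genes) passes them to oxygen. Complex V (ATP synthase, Atp5 genes) uses the resulting proton gradient to make ATP. Most subunits are encoded in the nucleus and are made in nearly all cells, and neurons draw most of their ATP from this pathway. Several subunits of complex IV come in tissue-type isoforms, of which one is widespread and the other is known from heart and skeletal muscle, testis or lung.

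The sections came from wild-type C57BL/6J male offspring at postnatal day 21. Their mothers were 8 weeks old and received a diet with either 2 mg/kg folic acid (MF, labelled as median folate, 2 sections) or 20 mg/kg folic acid (HF, 2 sections), for 2 weeks before mating and then through pregnancy and lactation. The offspring of both diets were of the same strain, sex and age, and there was no group without added folic acid. Visium-FFPE counts pairs of probes hybridised to the RNA of a fixed section in barcoded spots, and each spot covers several neighbouring cells. Values are counts of unique molecular identifiers (UMIs), summed over the spots of a section or area and divided by the total of those spots to give CPM. Each section was treated as 1 replicate, so the number of sections and not of spots sets the error. The sources used here do not say whether sections of a diet came from separate litters. CPM was compared between areas or sections for the same gene, not between genes, since the number and position of the probes of a gene were not given in the sources used here.

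A spot was kept from 500 UMIs and 250 genes upwards, which left 13452 of 13470 spots, between 3197 and 3598 per section. MF replicate 1 was the deepest section with 90096877 UMIs, and the other 3 held between 34982061 and 42506921. Clustering without the member genes gave 24 clusters and 18 areas, which were named from marker genes or, where no marker list fitted, from their leading genes. Of the 24 clusters, 1 of 26 spots led by Cga and Agrp was not used and is not among the 18 areas, since HF replicate 2 had 0 spots in it. Small areas were the choroid plexus (43 spots, led by Ttr and Folr1, 8 to 12 per section), the ependyma (72 spots, led by Tmem212 and Ak7, 17 to 19 per section) and the reticular thalamic nucleus (236 spots, led by Six3 and Pvalb, 40 to 103 per section). The make-up of the sections differed. The reticular thalamic nucleus held 103 spots in HF replicate 2 and 40 to 53 in the others, and 1 cluster of the hypothalamus held 5 spots in HF replicate 2 and 122 to 230 in the others. The sections used the same array, so 2472 of 4259 barcodes, which are array positions, occurred in all 4. In an area, fewer cells of a type and less RNA per cell cannot be told apart.

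Members took up 1.66% of the UMIs of MF replicate 1, 1.62% of MF replicate 2, 1.64% of HF replicate 1 and 1.71% of HF replicate 2 (1.66% ± 0.0385, SD, n = 4 sections). The share varied more between areas than between sections. It was highest in the reticular thalamic nucleus, at 1.90%, 1.86%, 1.99% and 1.99% in MF replicates 1 and 2 and HF replicates 1 and 2 (1.93% ± 0.0652, SD, n = 4). It was the highest area within each of the 4 sections, and only the relay thalamus of HF replicate 2, at 1.87%, reached its lowest section. The medial habenula (1.83% ± 0.0192) and the relay thalamus (1.81% ± 0.0465) followed, and these neighbours in the order did not differ beyond their spread. White matter (1.45% ± 0.0893), the ependyma (1.46% ± 0.0793) and the meninges (1.5% ± 0.0639) had the lowest shares, and their sections overlapped one another. Within a section, the share in single spots ran from 1.37% to 1.98% between the 5th and the 95th percentile of MF replicate 1, the deepest section.

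**Figure D1:**
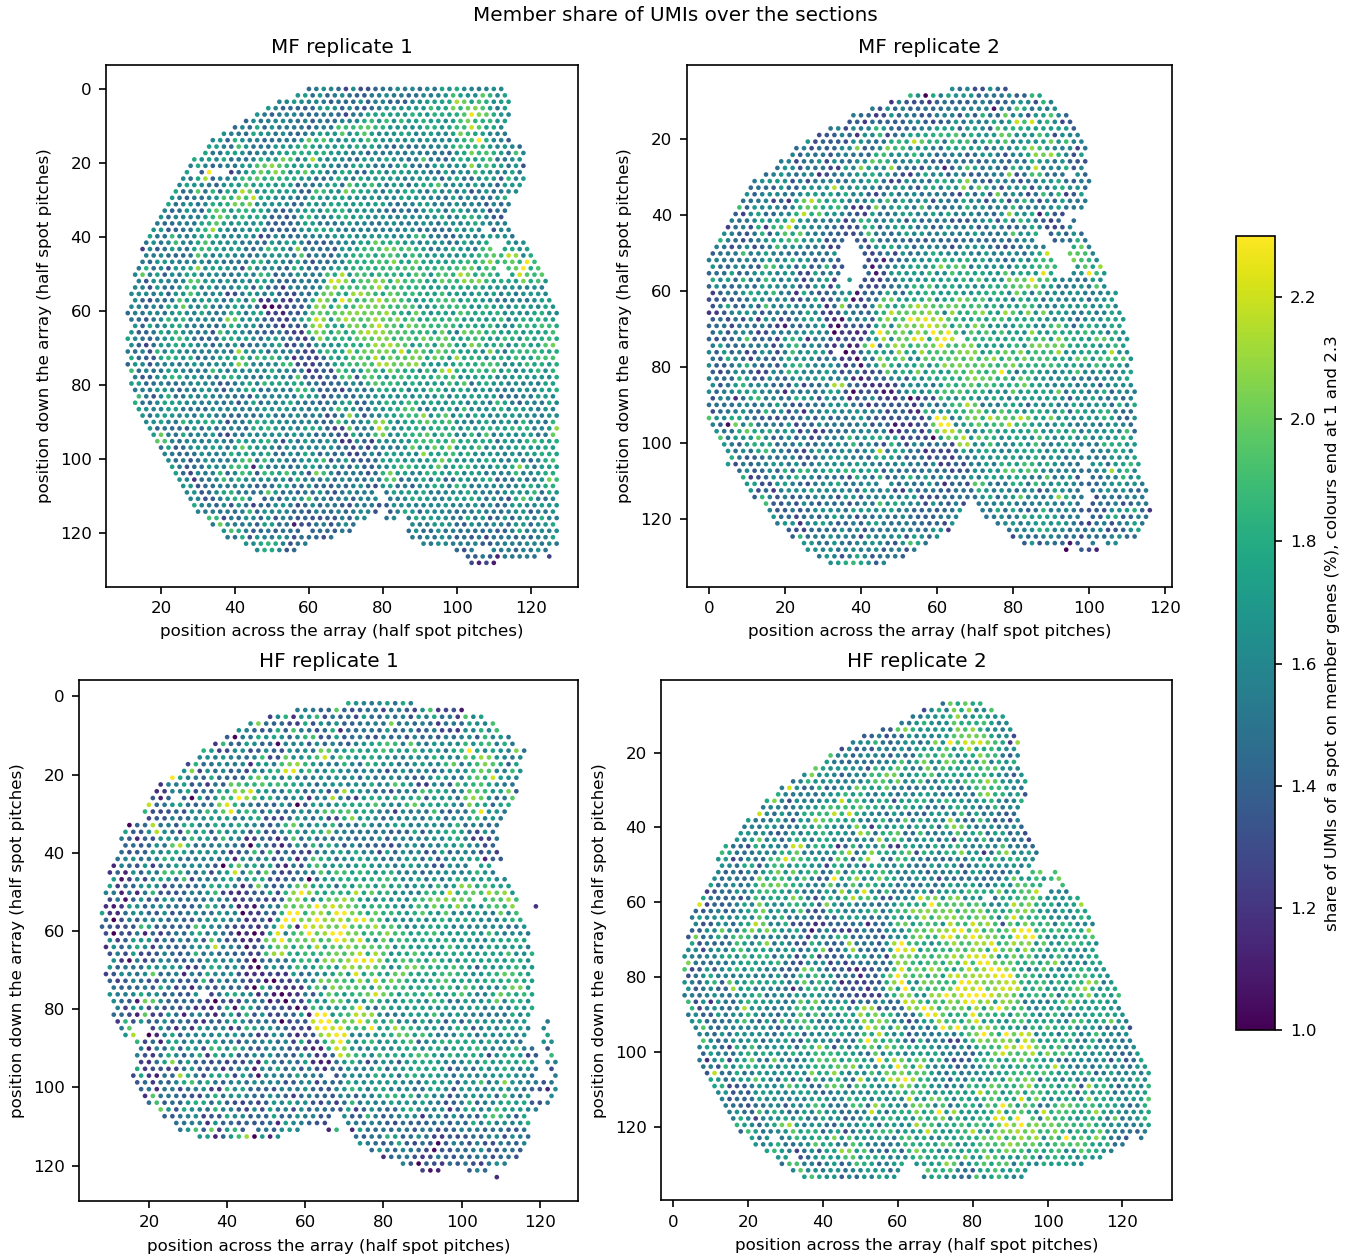
Share of the UMIs of each spot that fell on the 76 members, drawn at the array positions of the spots for the 4 sections with 1 colour scale in percent. Spots of high share lie in the thalamus of each section, and the share of the whole section was between 1.62% and 1.71%.

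**Figure D2:**
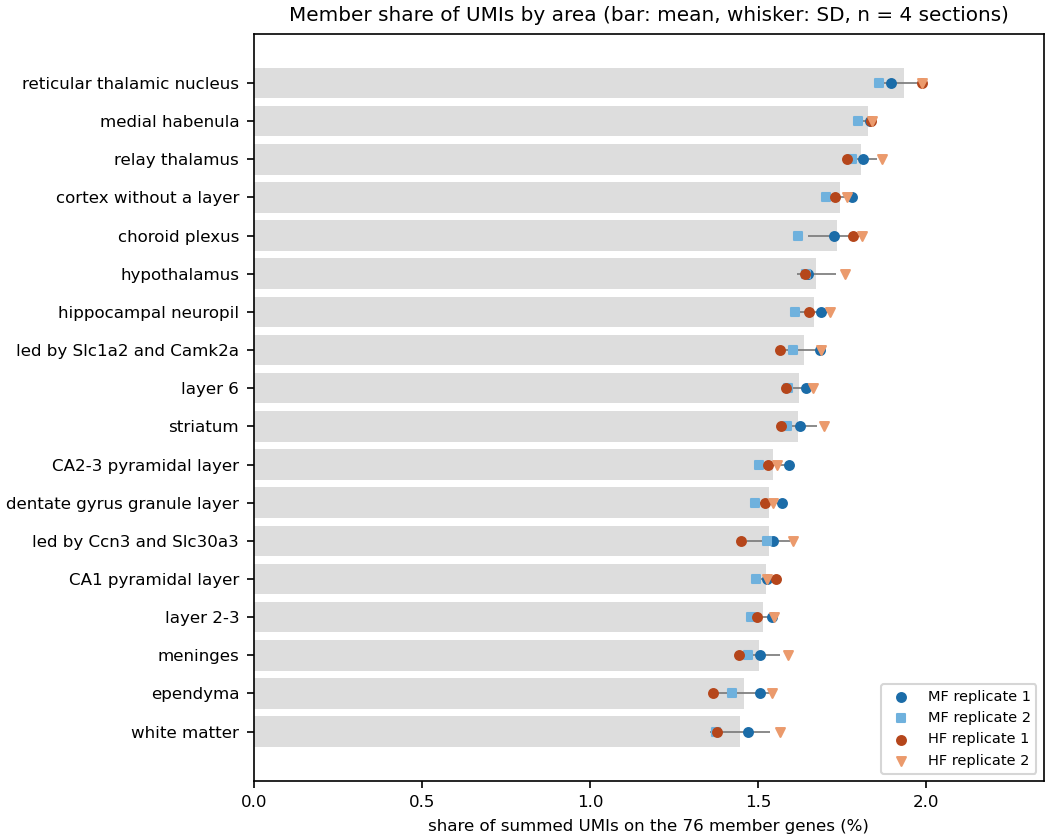
Percent of summed UMIs on the 76 members in each area, with 1 point per section coloured by diet and a bar for the mean of 4 sections. The reticular thalamic nucleus is highest at 1.93% and white matter lowest at 1.45%, and points of both diets lie among each other in most areas.

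The authors' table of spatial autocorrelation gave a second readout that does not depend on the areas. Moran's I is near 0 for a gene scattered at random over the section and rises as neighbouring spots become more alike. Its median over the members was 0.0341, 0.0291, 0.0344 and 0.0284 in MF replicates 1 and 2 and HF replicates 1 and 2, against 0.0166, 0.0113, 0.0146 and 0.0104 over all listed features. Between 59 and 62 of the 76 members lay above the median of all features in each section. The members were not matched to other features on their counts, so this is a description. Cox6a2, the muscle-type isoform of subunit 6a of complex IV, had by far the highest value among the members, from 0.346 in HF replicate 2 to 0.420 in MF replicate 1. Cox8c, which was almost not counted, lay near 0.

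For each area, the members were then set against the mean of the other areas with the quasi-likelihood test of edgeR, with the section as a block. Calls needed an adjusted p (Benjamini-Hochberg, over all tested genes) under 0.05 and a difference of 1.2-fold or more. Of the 76 members, 75 passed the filter on low counts, and Cox8c, a testis isoform of subunit 8, with 17 UMIs in all, did not. Over 18 areas this gave 1350 pairs of a member and an area, of which 129 were called higher and 105 lower. At least 1 area was called for 72 of the 75 members, and Ndufb2, Ndufb5 and Ndufs3 had none. The range of a member over the areas had a median of 0.89 on the log2 scale, and 46 members had a range under 1. Ndufs7 and Ndufs4, subunits of the matrix arm of complex I, had ranges of 0.45 and 0.54. Ndufb5 and Ndufa8, accessory subunits of the same complex, had ranges of 0.50 and 0.54, and Atp5k, a membrane subunit of ATP synthase, 0.52. The 12 members with the widest range had a median of 3.06, and they were for the most part the tissue-type isoforms described further on. Several tissue-type isoforms had few UMIs over all sections, with 305 for Cox8b, 752 for Cox7b2, 765 for Cox6b2 and 1015 for Cox4i2. Cox6a2 had 16618. The part of low counts in these ranges was not tested.

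**Figure D3:**
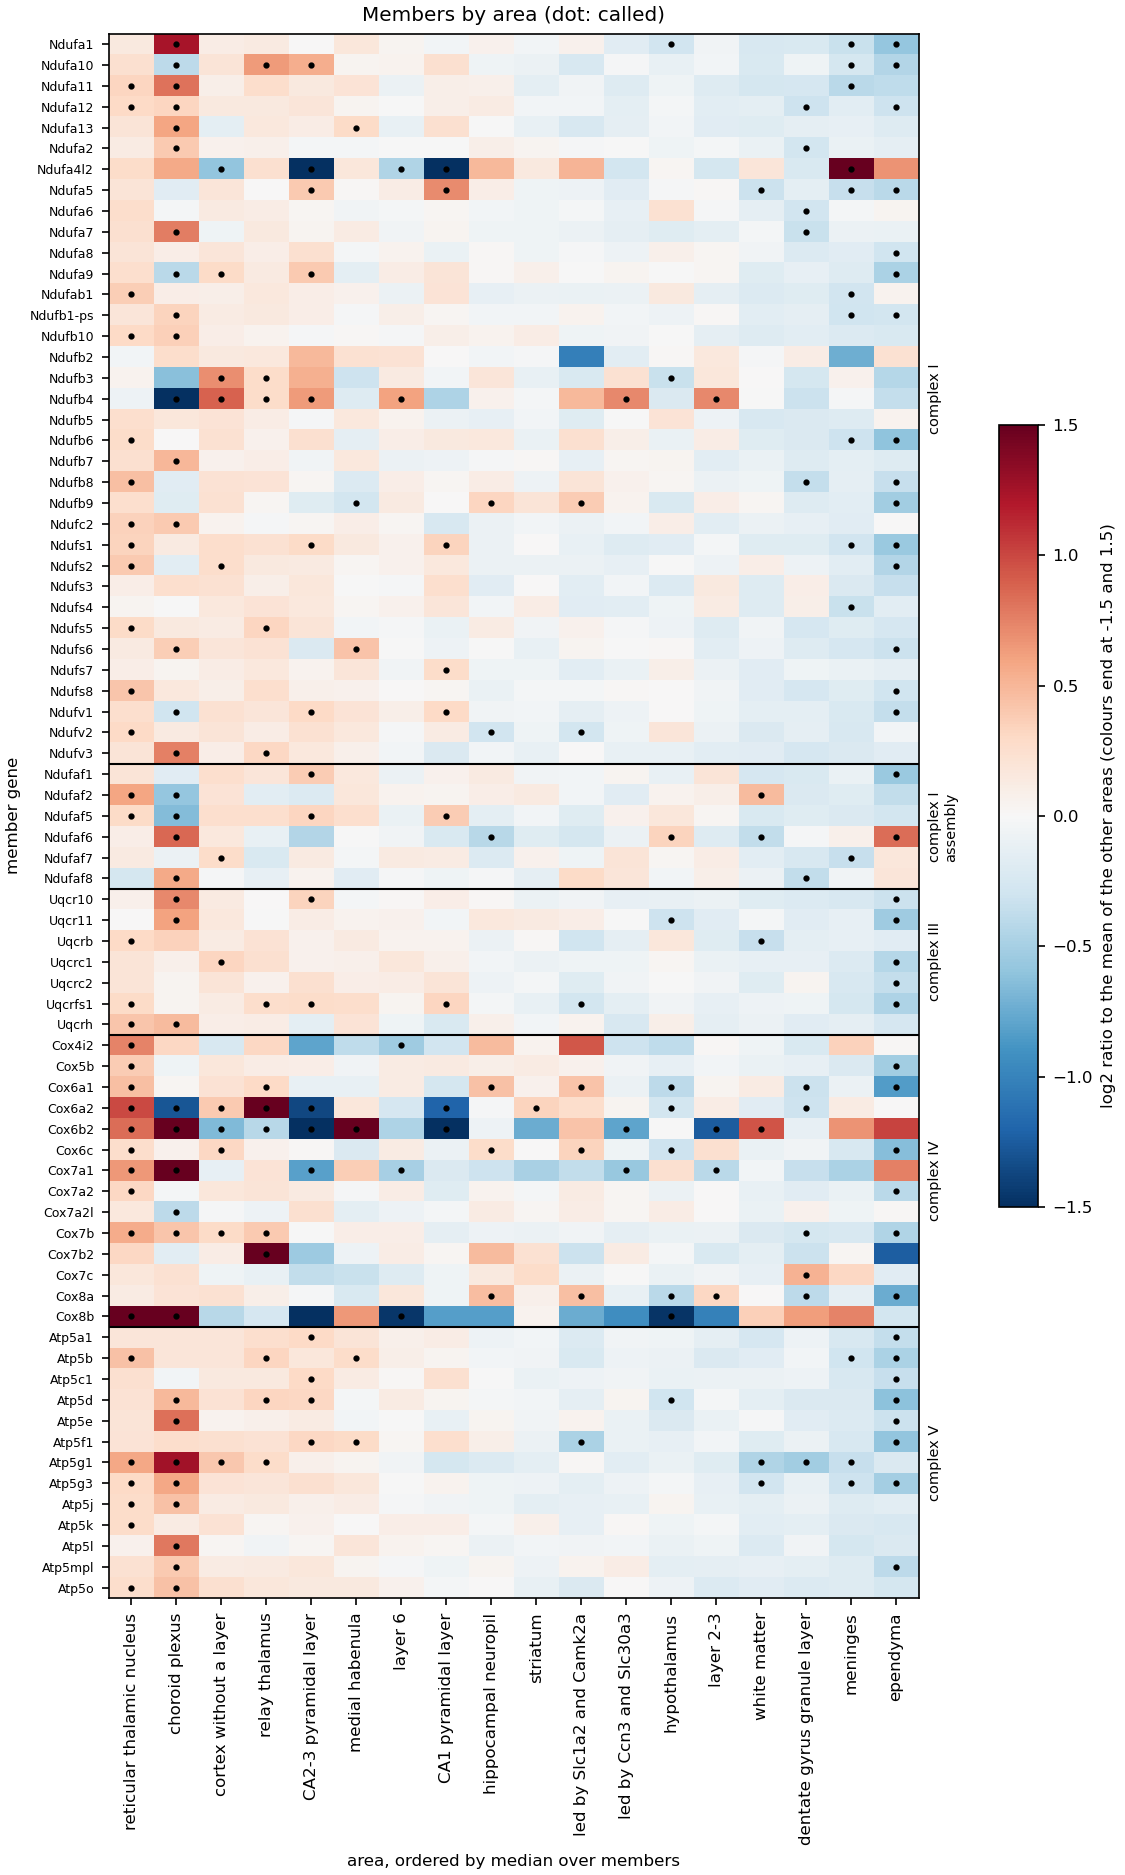
Log2 ratio of each of the 75 tested members (rows, ordered by complex) in each of 18 areas (columns) to the mean of the other areas, with colour limited at the ends of the scale. The columns of the reticular thalamic nucleus and the choroid plexus are mostly above 0 and that of the ependyma mostly below 0, with medians of 0.25, 0.19 and -0.30.

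The reticular thalamic nucleus, a sheet of GABAergic neurons around the thalamus, stood highest. There 33 of 75 members (44.0%) were called higher, against 14.9% of all 13055 genes, and 0 were called lower, against 14.2% of all genes. The median member lay 0.25 above the other areas on the log2 scale, where the median of all genes was -0.03. Called members came from every complex, with 12 of 35 for complex I, 3 of 7 for complex III, 10 of 14 tested for complex IV and 6 of 13 for complex V, and also with 2 of the 6 assembly factors. Atp5b, the catalytic beta subunit of ATP synthase, had 938, 829, 1113 and 828 CPM in MF replicates 1 and 2 and HF replicates 1 and 2, and its log2 ratio was 0.44 (SE 0.04, edgeR adjusted p 6.2e-15). HF replicate 1 was the highest of these sections, and the medial habenula, the relay thalamus and the cortex without a layer overlapped with the others. Ndufs8, an iron-sulphur subunit of complex I, had 356, 343, 362 and 391 CPM and a log2 ratio of 0.42 (SE 0.05, edgeR adjusted p 1.9e-11). The sections lay within a narrow band, whose lower end was reached by the relay thalamus and the hypothalamus of HF replicate 2. Uqcrfs1, the Rieske iron-sulphur protein of complex III, had 371, 390, 429 and 381 CPM and a log2 ratio of 0.28 (SE 0.04, edgeR adjusted p 1.1e-07). The summed markers of parvalbumin interneurons stood at 3350 CPM in this area (3039 to 3714 over the sections) and at 977 in the relay thalamus. That list holds Pvalb and Gad1, which are among the leading genes of this area. Its sum is therefore not independent of how the area was drawn. Markers of white matter summed to 56012 CPM here, against 83396 in white matter itself. The part of these cell types in the result was not tested. With areas set by the highest marker score of a spot instead of by clustering, 16 members were called higher, and the direction stayed.

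In the choroid plexus, the secretory epithelium that makes cerebrospinal fluid, 29 members (38.7%) were called higher, against 24.3% of all genes, and 8 (10.7%) lower, against 24.5%. The median member was 0.19 higher on the log2 scale. The called members were unevenly spread, with 12 higher and 4 lower in complex I, 3 and 0 in complex III, 4 and 2 in complex IV, 8 and 0 in complex V, and 2 and 2 among the assembly factors. Ndufa1, a small accessory subunit of complex I, had 595, 626, 675 and 672 CPM in MF replicates 1 and 2 and HF replicates 1 and 2, and its log2 ratio was 1.24 (SE 0.06, edgeR adjusted p 1.19e-33). All 4 sections lay above every section of every other area, of which the highest had 419 CPM. Atp5e, the epsilon subunit of ATP synthase, had 843, 906, 938 and 869 CPM and a log2 ratio of 0.82 (SE 0.05, edgeR adjusted p 1e-26), and again no other area reached these values. Uqcr10, a small subunit of complex III, had 519, 613, 604 and 610 CPM and a log2 ratio of 0.73 (SE 0.05, edgeR adjusted p 9.2e-21), also without overlap with the other areas. Atp5g1, one of the genes for the c subunit that forms the rotor ring of ATP synthase, had 65.1, 40.0, 64.1 and 108 CPM and a log2 ratio of 1.26, which was 1.06 and not called after thinning of the spots to 5000 UMIs (edgeR adjusted p 0.0527). Its sections spread widely, and MF replicate 2 lay within the range of several other areas. Ndufb4, an accessory subunit of complex I, was counted only 2 times here (1.76, 0, 0 and 2.39 CPM), and its log2 ratio of -2.70 was also not called after thinning. Scaling by library size alone, without TMM, left 19 members called higher in the choroid plexus and moved the member median from 0.19 to 0.01, while the median of all genes moved from -0.05 to -0.22. Thinning left 11 called higher, and marker-score areas left 8 higher and 4 lower.

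The ependyma, the ciliated lining of the ventricles, had the lowest median member by log2 ratio, while white matter had the lowest share of UMIs. There 35 members (46.7%) were called lower, against 19.1% of all genes, and 1 higher, against 18.7%. The median member was -0.30 on the log2 scale. The members called lower were 15 of complex I, 5 of complex III, 6 of complex IV and 8 of complex V, with 1 assembly factor. Cox6a1, the widespread isoform of subunit 6a, had 331, 330, 350 and 438 CPM in MF replicates 1 and 2 and HF replicates 1 and 2, with a log2 ratio of -0.84. Cox8a, the widespread isoform of subunit 8, had 499, 425, 402 and 481 CPM, with a log2 ratio of -0.75. For Cox8a the sections of the ependyma lay below those of all other areas except the dentate gyrus of HF replicate 2. For Cox6a1 they overlapped with 5 areas. Uqcrfs1 had a log2 ratio of -0.47 in the ependyma, Atp5b one of -0.48, Ndufs1, the largest iron-sulphur subunit of complex I, one of -0.55, and Ndufb6 one of -0.60. The single member called higher was Ndufaf6, an assembly factor of complex I, with a mean of 39.7 CPM (SD 5.37, n = 4 sections) and a log2 ratio of 0.84. Astrocyte markers summed to 1961 CPM in this area and ependymal markers to 2033, against 1205 CPM of ependymal markers in the choroid plexus. Among the 50 leading genes of the area were 8 ependymal markers and 4 of the hypothalamus. The part of any of these in the result was not tested. With library size alone the median stayed below 0, at -0.10, and 15 members were lower and 6 higher. It was also below 0 after thinning (20 lower) and in marker-score areas (13 lower).

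In the other areas fewer members were called. In the meninges, 13 members (17.3%) were lower, against 6.21% of all genes, and 1 was higher, against 17.8%. Among those lower were Ndufa11, a membrane subunit of complex I, at -0.41, and Atp5g1 at -0.35. The count of lower members in the meninges rose to 29 without MF replicate 2 and was 1 with library size alone. In the dentate gyrus granule layer, 11 members (14.7%) were lower, against 16.3% of all genes, including Atp5g1 at -0.52 and Cox8a at -0.40, and 1, Cox7c, was higher at 0.53 (against 18.1%). White matter had 5 members lower (6.67%, against 16.4%), among them Atp5g1 at -0.46 and Ndufaf6 at -0.37, and 2 higher (against 20.1%), Cox6b2 and Ndufaf2, an assembly factor, at 0.47. Its count of lower members was 10 without MF replicate 2 and 9 without HF replicate 2. The relay thalamus had 13 members higher (17.3%, against 16.7%) and 1 lower (against 20.1%), and 24 were higher in marker-score areas.

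In the CA2-3 pyramidal layer 14 members were higher (18.7%, against 21.3%) and 4 lower (against 22.5%), but 9 were higher without MF replicate 1, 1 with library size alone and 0 in marker-score areas. The cortex without a layer, cortical spots with no leading layer markers, had 10 higher (13.3%, against 16.5%) and 2 lower (against 18.2%). In the hypothalamus 9 members were lower (12.0%, against 18.9%) and 1 higher (against 16.9%), and in the pyramidal layer of CA1 6 were higher (8.0%, against 20.9%) and 3 lower (against 22.1%). In layer 2-3, layer 6, the striatum, the hippocampal neuropil, the medial habenula and the areas led by Ccn3 and Slc30a3 or by Slc1a2 and Camk2a, between 1 and 5 members were higher and between 0 and 4 lower. For all genes those shares ran from 9.17% in the area led by Slc1a2 and Camk2a to 18.3% in layer 2-3 for higher calls, and from 2.81% to 20.9% in the same areas for lower calls. The hippocampal neuropil had 4 higher and 2 lower (2.67%, against 2.9%), and the striatum 1 higher and 0 lower (against 9.92%). The medians of CA1 (0.03), CA2-3 (0.10), layer 6 (0.03) and the hypothalamus (-0.06) changed sign with library size alone, to -0.11, -0.10, -0.01 and 0.07, so no direction is given for them.

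Single members did stand out in these areas. Ndufa5, an accessory subunit of complex I, had 294, 366, 318 and 327 CPM in the pyramidal layer of CA1 and a log2 ratio of 0.71, and no section of another area reached these values. Ndufa10, an accessory subunit of complex I, had 351, 403, 418 and 394 CPM in the relay thalamus and a log2 ratio of 0.64, again above all other areas. Ndufb3 and Ndufb4, accessory subunits of complex I, were higher in the cortex without a layer, by 0.70 and 0.89. In the medial habenula, Ndufs6 was higher at 0.43 and Ndufb9 lower at -0.27.

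Further members were called in the cortex, the hippocampus and other areas. Ndufb4 was called higher at 0.89 in the cortex without a layer, 0.72 in layer 2-3, 0.60 in layer 6 and 0.72 in the area led by Ccn3 and Slc30a3, and at 0.63 in the CA2-3 pyramidal layer. Ndufb2, an accessory subunit of complex I with few counts, ranged over 1.51 on the log2 scale and yet was called in no area. The pyramidal layer of CA1 had Ndufaf5, an assembly factor, higher at 0.38, and the CA2-3 pyramidal layer had Ndufa10 higher at 0.54. In the hippocampal neuropil, Ndufaf6 (-0.42) and Ndufv2, a flavoprotein-arm subunit of complex I (-0.29), were lower. In the area led by Slc1a2 and Camk2a, Atp5f1, a stalk subunit of ATP synthase (-0.47), and Uqcrfs1 (-0.27) were lower. In the hypothalamus, Ndufaf6 was higher at 0.33, and Cox8a lower at -0.40. Ndufaf6 was also higher in the choroid plexus, at 0.86. Atp5g3 was higher in the choroid plexus (0.58) and the reticular thalamic nucleus (0.30) and lower in the ependyma (-0.51), the meninges (-0.31) and white matter (-0.29), and Atp5g1 was higher in the reticular thalamic nucleus by 0.58.

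Members followed a shared profile over the areas to different degrees. The log2 ratio of a member correlated with the median of the other members at a median Pearson r of 0.70 over 18 areas, and 57 of 75 had r above 0.5. These values are a description, since areas of a section share its library and scaling. Cox7b (0.94), a widespread subunit of complex IV, and Atp5g3 (0.93), a further gene for the c subunit, followed the median most closely. Ndufa4l2 went against it, with r of -0.34. By log2 ratio, the choroid plexus was the highest area for 28 members and the reticular thalamic nucleus for 16, and the ependyma was the lowest for 39. These ranks rest on the TMM scaling of the areas, and the medians of the choroid plexus and the ependyma moved with library size alone, as given above. Ranks by CPM can differ and were not counted.

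The tissue-type isoforms of complex IV had r with this shared profile of 0.29 for Cox8b and Cox7a1, 0.12 for Cox6a2, 0.047 for Cox4i2 and 0.0048 for Cox6b2. Cox7b2, at 0.50, lay close to the widespread Cox8a (0.51) and Cox6a1 (0.57). The low counts of several of these isoforms were not accounted for in r. Cox8b (chr7:140898945-140900446, minus strand, GRCm38), the isoform of subunit 8 known from heart and skeletal muscle, had 38.7, 75.5, 64.1 and 35.9 CPM in the choroid plexus of MF replicates 1 and 2 and HF replicates 1 and 2, which rest on 73 UMIs. In the reticular thalamic nucleus it had 4.79, 5.42, 8.63 and 5.6 CPM, from 26 UMIs. No section of another area passed 3.50 CPM, so neither area overlapped with the rest or with each other. The log2 ratio was 5.71 in the choroid plexus (SE 0.33, edgeR adjusted p 7.69e-28) and 2.22 in the reticular thalamic nucleus (SE 0.42, edgeR adjusted p 8.6e-06). Cox8b was called lower in the hypothalamus (-1.47) and in layer 6 (-1.46), at means of only 0.48 and 0.25 CPM. The other areas that these 2 ratios refer to include the choroid plexus. Cox8a (chr19:7215153-7217616, minus strand), its widespread counterpart, had a quite different pattern. It was highest in the hippocampal neuropil, with 864, 845, 952 and 913 CPM and a log2 ratio of 0.46, and in the area led by Slc1a2 and Camk2a, with a log2 ratio of 0.45. Both are shallow, with medians of 0.646 and 0.357 of the UMIs per spot of their section. The marker genes of skeletal muscle summed to between 3.56 and 20.9 CPM on average in an area, with 8.92 CPM in the choroid plexus and the lowest value in the reticular thalamic nucleus, and the part of muscle tissue in the result was not tested.

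**Figure D4:**
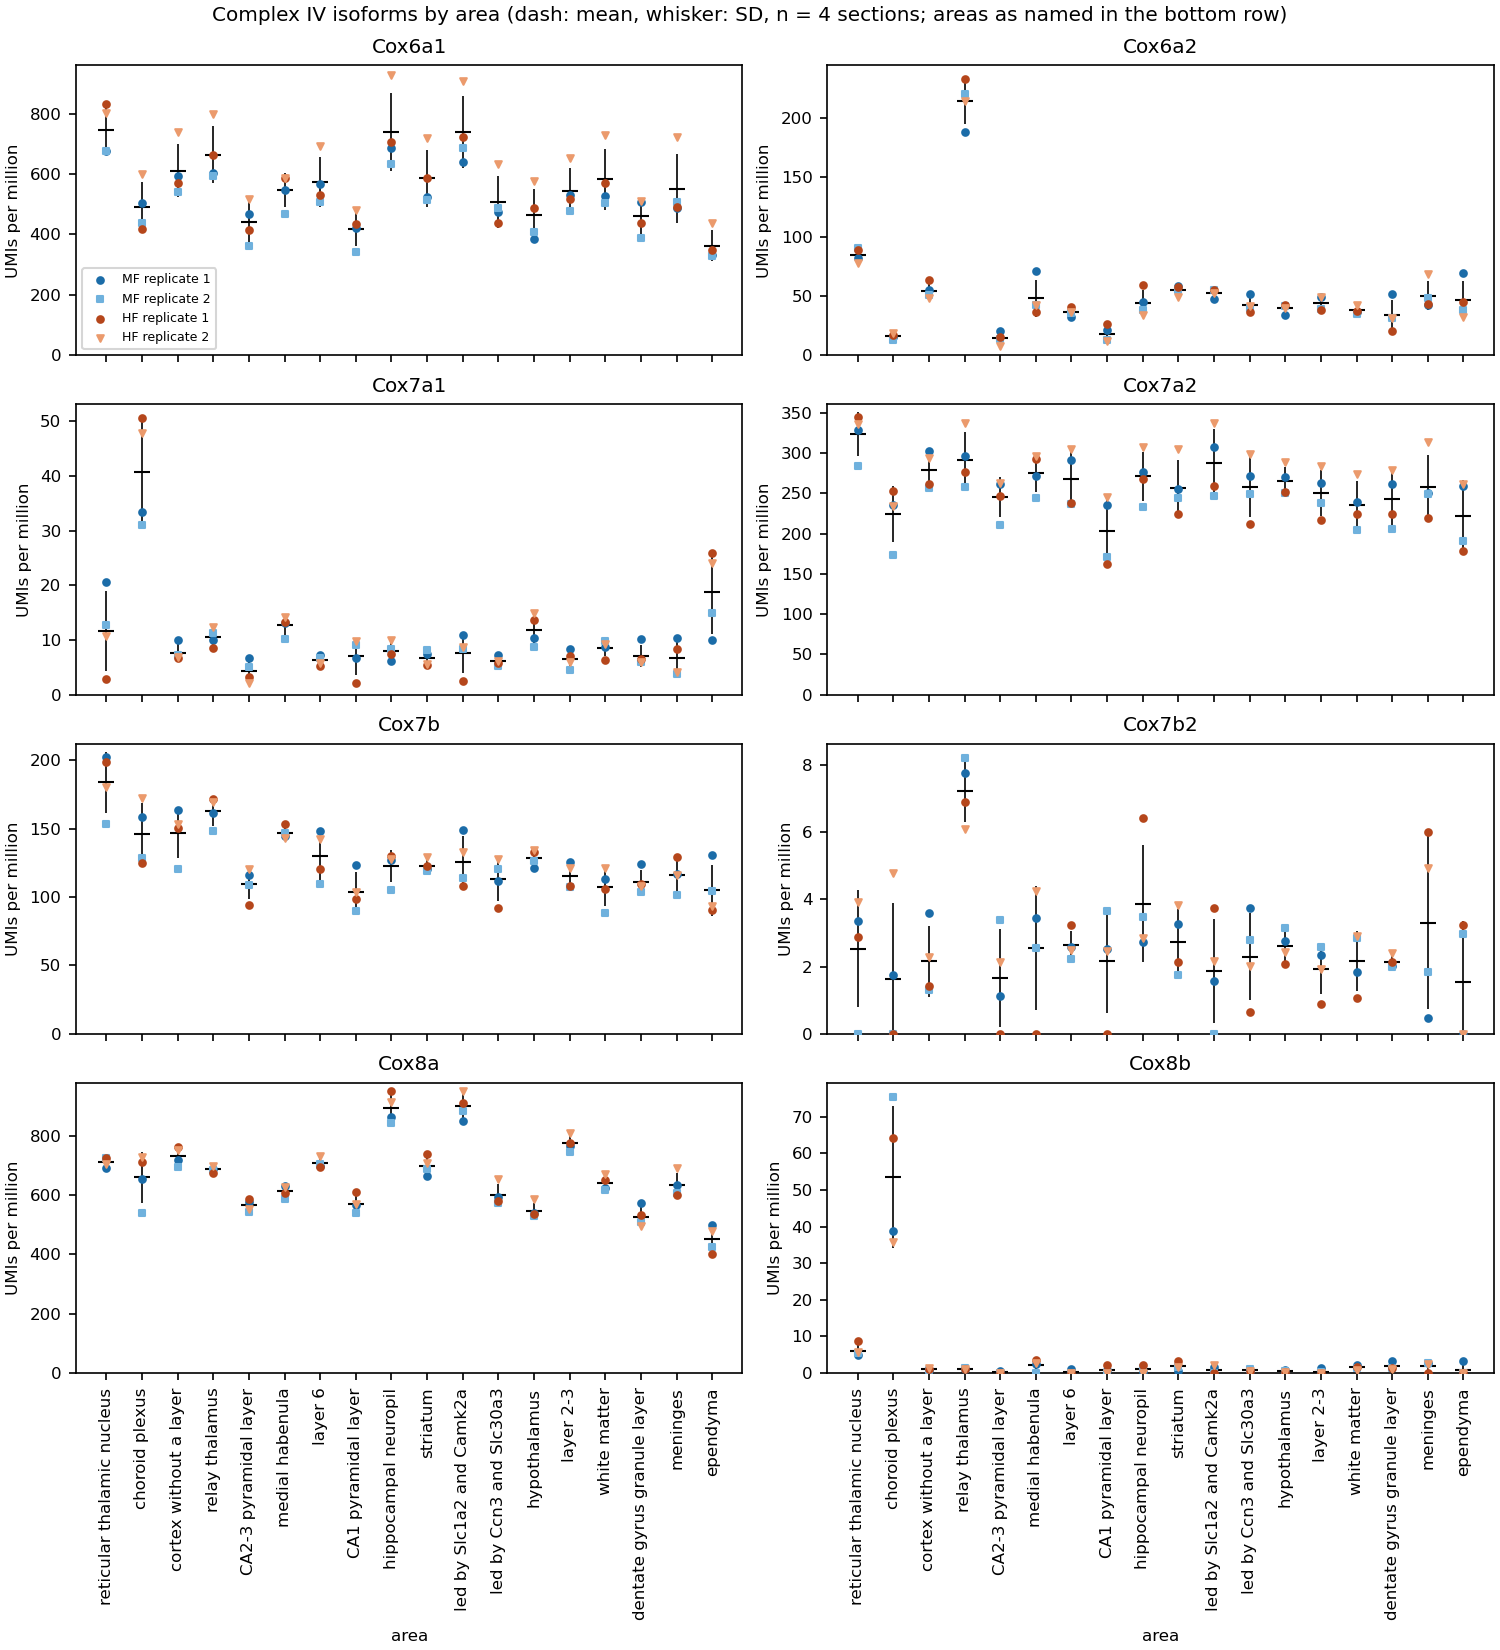
CPM of isoforms of complex IV in each area, 1 panel per gene, with 1 point per section coloured by diet and a bar for the mean of 4 sections. The pairs shown are Cox6a1 and Cox6a2, Cox7a1 and Cox7a2, Cox7b and Cox7b2, and Cox8a and Cox8b. Cox8b and Cox7a1 peak in the choroid plexus and Cox6a2 and Cox7b2 in the relay thalamus, while Cox6a1 and Cox8a are lowest in the ependyma.

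Subunit 6a showed a comparable split at other sites. Cox6a2 (chr7:128205435-128206387, minus strand), the muscle-type isoform, had 188, 220, 233 and 214 CPM in the relay thalamus of MF replicates 1 and 2 and HF replicates 1 and 2. In the reticular thalamic nucleus it had 82.4, 90.3, 89.2 and 77.8 CPM. The relay thalamus lay apart from all other areas in every section, and the reticular thalamic nucleus lay between it and the rest, of which no section passed 71.1 CPM. The log2 ratios were 2.45 in the relay thalamus (SE 0.06, edgeR adjusted p 9.69e-53) and 0.98 in the reticular thalamic nucleus (SE 0.13, edgeR adjusted p 2.72e-10). The second value was 0.29 (adjusted p 0.0514) in marker-score areas and was then not called. Cox6a2 was also called higher in the striatum, at 0.34, and lower in the pyramidal layers of CA1 (-1.20) and CA2-3 (-1.36) and in the choroid plexus (-1.29). Cox6a1 (chr5:115345642-115348981, minus strand), its widespread counterpart, had 676, 676, 831 and 801 CPM in the reticular thalamic nucleus, a log2 ratio of 0.45, and also a log2 ratio of 0.44 in the hippocampal neuropil and 0.42 in the area led by Slc1a2 and Camk2a. In marker-score areas its ratio in the reticular thalamic nucleus was 0.21 and not called, since it lay under 1.2-fold. Its HF sections lay above its MF sections in the reticular thalamic nucleus.

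Further isoforms had sites of their own. Cox6b2 (chr7:4751792-4753094, minus strand), known from testis, had 15.8, 31.1, 23.6 and 40.7 CPM in the choroid plexus, with a log2 ratio of 3.21 (SE 0.30, edgeR adjusted p 2.16e-16). In the medial habenula it had 8.28, 12.8, 9.81 and 14.2 CPM, with a log2 ratio of 1.51. The choroid plexus lay above every other area in all 4 sections, and the habenula overlapped with the ependyma and the meninges. Cox6b2 was lower in the pyramidal layers of CA1 (-2.38, from 2 UMIs) and CA2-3 (-1.70) and in layer 2-3 (-1.25), the area led by Ccn3 and Slc30a3 (-0.79), the cortex without a layer (-0.66) and the relay thalamus (-0.42). Cox7a1 (chr7:30184144-30186078, plus strand), the isoform of subunit 7a known from heart and muscle, had 33.4, 31.1, 50.6 and 47.9 CPM in the choroid plexus, with a log2 ratio of 2.43 (SE 0.27, edgeR adjusted p 3.6e-13). All 4 sections lay above all other areas. In the reticular thalamic nucleus Cox7a1 had 20.6, 12.6, 2.88 and 10.6 CPM and was called at 0.65 (edgeR adjusted p 0.0131), but without MF replicate 1, the section with the highest value, the log2 ratio was 0.19 and not called. Cox7a2, its widespread counterpart, was higher there by 0.31 and lower in the ependyma at -0.40. Cox7a2l, which takes part in supercomplex assembly, was lower in the choroid plexus at -0.39.

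Cox7b2, known from testis, had 7.76, 8.20, 6.90 and 6.09 CPM in the relay thalamus and a log2 ratio of 1.66 (SE 0.17, edgeR adjusted p 7.91e-15). Of the other areas only the hippocampal neuropil of HF replicate 1, with 6.44 CPM, reached these values. Cox7b, its widespread counterpart, was higher in the reticular thalamic nucleus by 0.56 and in the relay thalamus by 0.39. Uqcrh, the hinge protein of complex III, was higher in the reticular thalamic nucleus by 0.41 and in the choroid plexus by 0.48. Cox4i2, the lung-type isoform of subunit 4, was called higher in the reticular thalamic nucleus by 0.74 (edgeR adjusted p 0.0344) and lower in layer 6 at -0.53 (edgeR adjusted p 0.046). It was not highest in that nucleus, with a mean of 8.12 CPM against 8.46 in the area led by Slc1a2 and Camk2a. The hippocampal neuropil had 7.59 CPM, and the gene had only 1015 UMIs over all sections. Cox6c, a widespread subunit, was higher in the hippocampal neuropil (0.27) and lower in the ependyma (-0.64). Ndufa4l2 (chr10:127514967-127517154, plus strand), a paralogue of the complex IV subunit Ndufa4 that is known to be induced by low oxygen, had 25.1, 24.9, 24.0 and 37.0 CPM in the meninges and a log2 ratio of 1.68 (SE 0.16, edgeR adjusted p 8.28e-16). HF replicate 2 stood above the other 3 sections, which were alike, and 1 section of the ependyma, with 24.9 CPM, overlapped with them. Markers of pericytes and mural cells summed to 1058 CPM in the meninges (868 to 1271 over the sections) and to 356 CPM in the choroid plexus, the next area, and their part in the result was not tested. Ndufa4l2 was lower in the pyramidal layers of CA1 (-1.64) and CA2-3 (-1.52) and in the cortex without a layer (-0.59).

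Promoter sequences are shown for a widespread and a muscle-type isoform of subunit 8, for Cox6a1 as a further widespread isoform and for Cox7a1 as a further muscle-type isoform, because the levels of these 4 genes over the areas are compared above. Cox6a2 was not matched. They are the RefSeq promoters of GRCm38.p6, 250 bases before to 50 bases after the transcription start, 5′ to 3′ on the strand of the gene. Capitals mark the NRF1 core (the 10 capitals at -162 in Cox6a1), the GABP (ETS) core CCGGAAG, printed as CTTCCGG where it lies on the other strand, and the E-box CANNTG, each searched on both strands. No matches overlapped, and the letters of an E-box are not in the window of Cox6a1. Cox6a1 lies at chr5:115348909-115349208 (minus), with the NRF1 core at -162 and the GABP core at -16. Cox8a lies at chr19:7217567-7217866 (minus), with an E-box at -102 and GABP cores at -5 and 32. Cox8b lies at chr7:140900397-140900696 (minus), with E-boxes at -19 and 16. Cox7a1 lies at chr7:30183921-30184220 (plus), with an E-box at -124.
Cox6a1: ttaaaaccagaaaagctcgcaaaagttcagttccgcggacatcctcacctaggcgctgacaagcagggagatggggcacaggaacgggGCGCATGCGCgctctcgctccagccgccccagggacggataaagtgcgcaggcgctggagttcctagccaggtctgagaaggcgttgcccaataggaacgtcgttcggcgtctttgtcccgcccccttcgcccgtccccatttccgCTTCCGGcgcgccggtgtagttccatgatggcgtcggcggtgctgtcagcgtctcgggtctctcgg
Cox8a: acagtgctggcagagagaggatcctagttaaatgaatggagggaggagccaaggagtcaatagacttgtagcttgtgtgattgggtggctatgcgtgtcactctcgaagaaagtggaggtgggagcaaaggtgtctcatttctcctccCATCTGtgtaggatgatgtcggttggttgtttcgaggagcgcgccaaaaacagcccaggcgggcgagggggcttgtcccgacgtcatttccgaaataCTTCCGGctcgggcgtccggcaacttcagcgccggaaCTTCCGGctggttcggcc
Cox8b: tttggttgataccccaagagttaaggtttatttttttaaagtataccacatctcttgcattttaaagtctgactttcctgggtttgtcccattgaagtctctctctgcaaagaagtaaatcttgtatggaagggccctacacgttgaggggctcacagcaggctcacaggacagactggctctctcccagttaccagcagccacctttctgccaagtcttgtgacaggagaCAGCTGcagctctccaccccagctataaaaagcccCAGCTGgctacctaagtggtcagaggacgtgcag
Cox7a1: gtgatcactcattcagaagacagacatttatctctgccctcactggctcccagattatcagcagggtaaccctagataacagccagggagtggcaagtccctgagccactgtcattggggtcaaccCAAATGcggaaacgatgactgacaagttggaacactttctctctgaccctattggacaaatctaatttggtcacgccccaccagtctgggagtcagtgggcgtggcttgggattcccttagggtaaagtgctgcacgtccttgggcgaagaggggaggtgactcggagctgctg

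The same letters were counted over the promoters of 60 members that the RefSeq table held, beside those of 27025 genes, where a gene counts if any of its promoters holds the motif. NRF1 and GABP are regulators known from many nuclear genes of mitochondria. The NRF1 core was in 5 of 60 members (8.33%) and in 1.07% of all genes, and the GABP core in 14 (23.3%) and in 9.93%. The core AAGATGGC of YY1 was in 7 members (11.7%) and in 3.19% of genes. The core CAAGGTCA of the oestrogen-related receptors was in 3 members (5.0%) and in 1.76% of genes, and an E-box in 45 members (75%) and in 75% of genes. By complex, the GABP core was in 4 of 29 promoters for complex I, 2 of 5 for complex III, 2 of 11 for complex IV and 4 of 10 for complex V. A match is a description of the letters and not of binding.

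Other genes of the pathway were read from fixed lists. In the reticular thalamic nucleus, 0 of 4 genes of complex II were called, against 33 of 75 members. None of 2 genes for cytochrome c and c1 was called there. Of 33 other assembly factors, 4 were higher and 1 lower, with a median log2 ratio of 0.02. For all genes, 14.9% were called higher in this area and 14.2% lower. Of 10 regulators of mitochondrial genes, 2 were higher there and 0 lower, and the median log2 ratio of the 10 was -0.002. Nrf1 (-0.21) and Gabpa (-0.28) lay below 0 and were not called. The 2 called were Ppargc1a, the coactivator PGC-1alpha, and Esrra, an oestrogen-related receptor. Ppargc1a had 138, 135, 121 and 165 CPM and a log2 ratio of 1.21 (edgeR adjusted p 3.06e-20). Esrra had a log2 ratio of 0.61 (edgeR adjusted p 1.07e-08). Of 7 carriers and markers of mitochondrial mass, 3 were higher and 0 lower: Slc25a5 (0.36) and Slc25a4 (0.34), which exchange ADP and ATP across the inner membrane, and Cs, citrate synthase (0.30). Glycolysis, the cytosolic route to ATP, had 3 of 12 tested genes higher and 2 lower in this area. In the ependyma, 8 of 12 genes of glycolysis were lower and 0 higher, 2 of 4 genes of complex II were lower, and Esrra was lower at -0.91. In the choroid plexus, 2 of 12 genes of glycolysis were higher and 6 lower, and 2 of 4 genes of complex II, Sdhc (0.91) and Sdhd (0.61), were higher. There 1 of 7 carriers and markers was higher and 5 were lower, while the members as a whole were called higher more often than lower. In the CA2-3 pyramidal layer, 10 of 12 genes of glycolysis were higher and 1 was lower. For all genes, 18.7% were called higher and 19.1% lower in the ependyma. The choroid plexus had 24.3% and 24.5%, and the CA2-3 pyramidal layer 21.3% and 22.5%.

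Between the diets, no member was called over the whole section. The test was that of edgeR on the summed UMIs of each section, HF against MF, with 2 sections per diet. Of 75 tested members 0 were called, and at an unadjusted p under 0.05 the count was also 0, where 1020 of 14971 genes (6.81%) passed that level. Over all genes 0 were called as well, a background of 0%. HF was higher for 39 members and lower for 36, with a median log2 difference of 0.002, the same as for all genes. The sections of the diets did not overlap for 13 members, with HF higher for 9 (background 21.8% of all genes) and lower for 4 (17.9%). The 95% interval of the difference lay within 1.5-fold in either direction for 72 of 75 members, within 2-fold for all 75, and within 1.2-fold for 29. On simulated sections of this depth, the test recovered 49% of genes changed 1.5-fold and 88.5% of those changed 2-fold. It made 18 false calls beside 98 true ones at 1.5-fold, and 13 beside 177 at 2-fold.

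**Figure D5:**
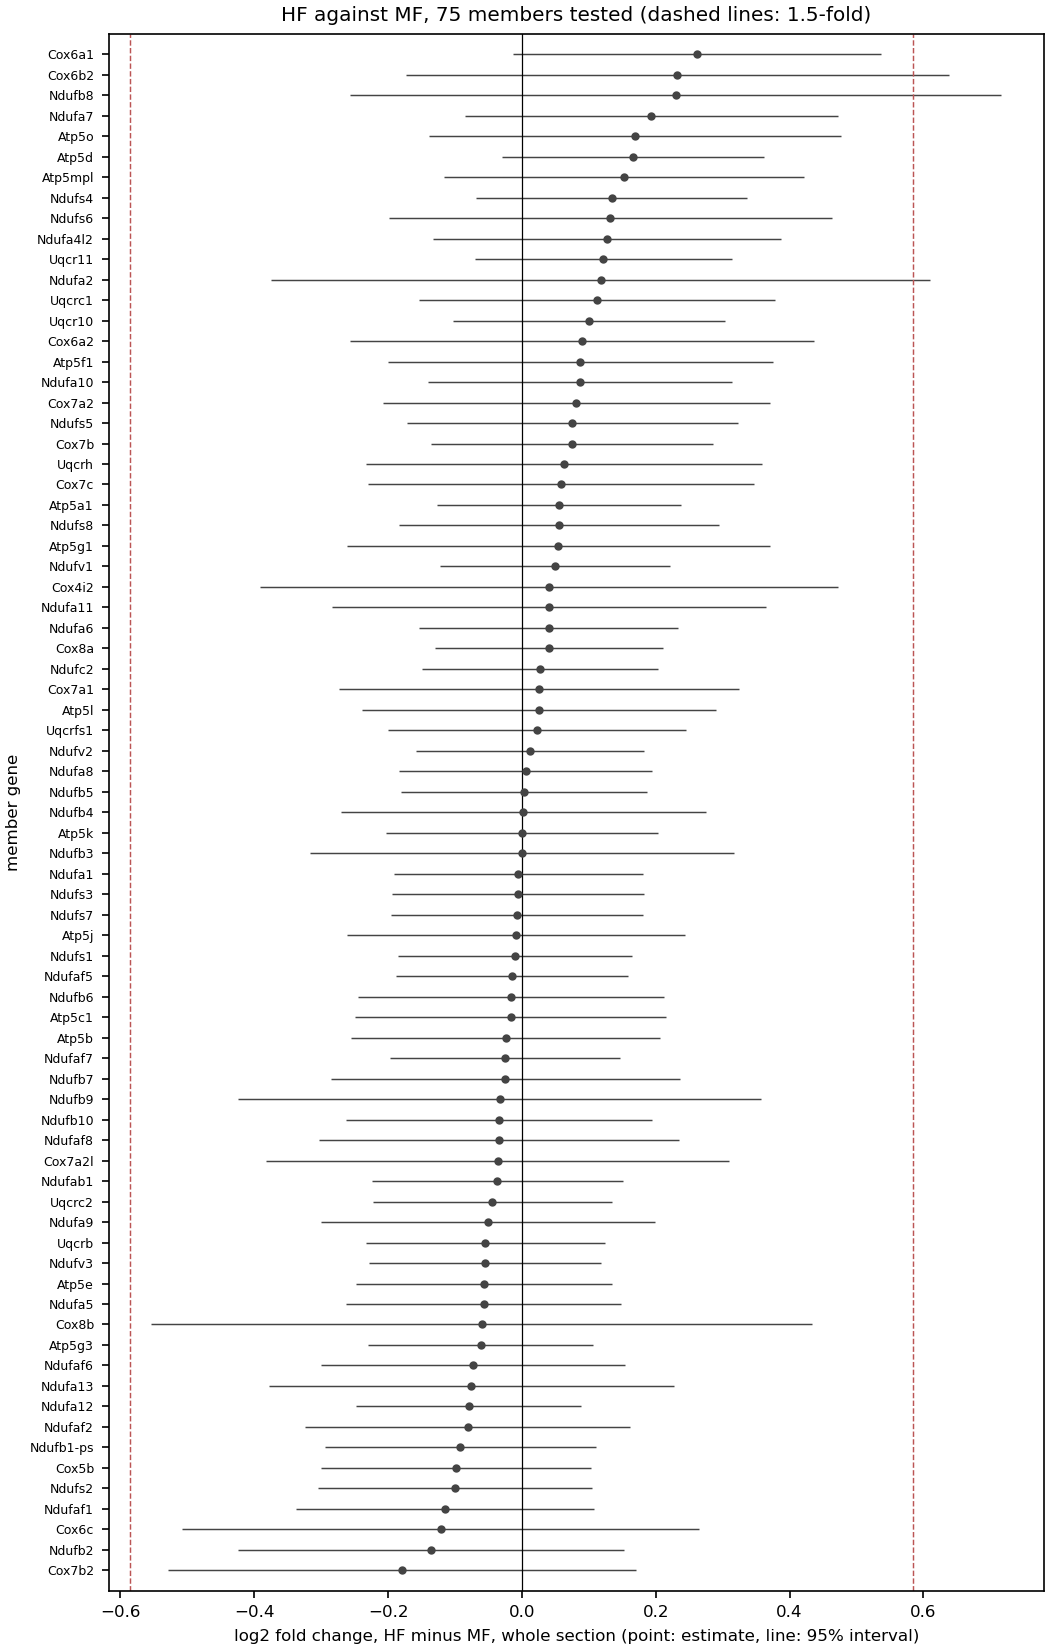
Log2 difference HF minus MF over the whole section for the 75 tested members, ordered by the estimate, with points for the estimate, lines for the 95% interval and dashed lines at 1.5-fold. The points lie on both sides of 0, from -0.18 for Cox7b2 to 0.26 for Cox6a1, and 72 intervals stay within the dashed lines.

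Cox6a1 had the largest difference. It stood at 535.7 and 506.1 CPM in MF replicates 1 and 2 and at 564.6 and 691.3 CPM in HF replicates 1 and 2. Both HF sections lay above both MF sections, and HF replicate 2 stood well apart from the other 3. The log2 difference was 0.26, with a 95% interval from -0.01 to 0.54 (edgeR adjusted p 0.722). The next members with HF higher and no overlap were Cox6b2 (0.23), Ndufa7 (0.19), Atp5d (0.17), the delta subunit of ATP synthase, and Ndufs4 (0.13). With HF lower and no overlap these were Cox7b2 (-0.18), Ndufb2 (-0.14), Ndufa12 (-0.08) and Ndufv3 (-0.05). The sign of Ndufb2 turned with thinned spots (0.019) and that of Cox7b2 with the same make-up of areas in each section (0.078). Cox6a2, high in the relay thalamus, had 74.0, 83.0, 96.9 and 71.4 CPM over the whole sections, and the summed markers of the relay thalamus ranked the sections in the same order, with 1697, 1877, 2099 and 1422 CPM. Cox6b2, high in the choroid plexus, had 3.50, 3.25, 3.60 and 4.38 CPM, and the summed markers of the choroid plexus, at 2477, 2330, 3467 and 3830 CPM, also ranked the sections in its order and were higher in both HF sections. With the same make-up of areas in each section, the log2 difference of Cox6b2 was 0.25. The part of these areas in the values was not tested otherwise.

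The share of UMIs on members was 1.64% on average in MF and 1.67% in HF, a difference of 0.0334 percentage points. An exact two-sided permutation test over the sections gave p 0.667, and the smallest p that 2 against 2 sections allow is 0.333. Other genes of the pathway showed the same picture. None of 4 genes of complex II, 2 for cytochrome c and c1, 33 assembly factors, 10 regulators, 7 carriers and 13 features of glycolysis was called. At an unadjusted p under 0.05, 2 features of these lists remained. Tfam, a factor for mitochondrial DNA, had a log2 difference of -0.25 (p 0.0155, edgeR adjusted p 0.696). Of 2 features with the symbol Aldoa, an aldolase of glycolysis, 1 had a log2 difference of -0.39 (p 0.0388, edgeR adjusted p 0.705) and the other 0.11 (p 0.118, edgeR adjusted p 0.741).

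Within areas, the diets were compared in 17 areas with at least 10 spots in every section. The choroid plexus was left out of this test because MF replicate 2 had 8 spots. Of 1194 pairs of a member and an area 0 were called by edgeR, where 193 of 188609 pairs over all genes (0.102%) were. At an unadjusted p under 0.05 there were 28 such pairs (against 6.13% of all pairs tested over all genes), 19 of the 28 with HF higher, from 17 members. The smallest adjusted p was 0.0907 by edgeR, for Ndufb8 in the CA2-3 pyramidal layer with a log2 difference of 0.60, in an area where 0.383% of all genes were called. With areas set by marker score, that pair was called (adjusted p 0.0328). HF was higher without overlap for 167 pairs (14%, against 17.7% over all genes) and lower for 141 (11.8%, against 17.3%). The areas leaned both ways. In the reticular thalamic nucleus HF was higher without overlap for 21 of 69 tested members (background 18.7%) and lower for 3 (15.1%), and in white matter for 14 of 74 (18.1%) and 2 (15%). In the area led by Ccn3 and Slc30a3 it was higher for 5 of 72 (16.3%) and lower for 16 (17.6%), in the cortex without a layer for 4 of 72 (16.6%) and 10 (18.7%), and in the relay thalamus for 10 of 75 (20.6%) and 13 (17.6%). Cox6a1 was higher in HF in 17 of 17 areas, by 0.08 to 0.41 on the log2 scale, without overlap in 10 of them and with an unadjusted p under 0.05 in 7. HF replicate 2 was its highest section in 17 of 18 areas. The areas come from the same 4 sections and are not independent of one another.

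In a joint fit of 12 areas with at least 50 spots in every section, no member had an area by diet term that was called, from 74 tested, where 10 of 12967 genes (0.0771%) were called by edgeR. At an unadjusted p under 0.05 the count was also 0 for members, and the smallest p was 0.0622, for Cox7a1.

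The diet comparison depended on which HF section was used. Without HF replicate 1, 7 members were called over the whole section, all with HF higher, and 1166 of 15179 genes (7.68%) were called. These members were Ndufb8 (0.52), Cox6a1 (0.41), Ndufa2 (0.40), Ndufa7 (0.34), Atp5o (0.32), Ndufs6 (0.30) and Atp5mpl (0.28). Without HF replicate 2, Cox6a2 was called higher (0.28) and Cox7a2l lower (-0.26), and 840 of 15130 genes (5.55%) were called. Without MF replicate 1 or MF replicate 2, 0 members were called, where 0% and 0.0066% of all genes were. Ndufb8 had 125.4 and 112.9 CPM in MF replicates 1 and 2 and 110.5 and 170.2 CPM in HF replicates 1 and 2. Ndufa2 had 155.7 and 136.5 CPM in MF and 125.5 and 193.1 CPM in HF. For both genes 1 HF section was the lowest of the 4 and the other HF section the highest, so the HF sections enclosed the MF sections. In the areas, 36 pairs were called without HF replicate 1 (35 with HF higher, 2.98% of pairs against 2.25% over all genes), most often for Ndufb8 (10 areas), Cox6a1 (9) and Ndufa2 (6). Without HF replicate 2, 8 pairs were called, all with HF lower (0.668% against 1.2%). Without either MF section 0 pairs were called, where 0.067% and 0.117% were over all genes. In these fits the single HF section is taken to vary like the MF sections.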

How the data were processed

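Visium-FFPE counts were read from 4 sections, 2 MF and 2 HF, each treated as 1 replicate. With Space Ranger and the mm10 (GRCm38) build, the authors made and deposited raw UMI counts of 19465 features per spot, without normalization, and the array positions of the spots (other values: coordinates and a flag for tissue). The authors' table of spatial autocorrelation, as deposited, holds Moran's I, a score per feature that was used as given, and its p-value, adjusted p-value and a normalized signal, which were not used. The count tables held 0 columns of other series. Positions came from GENCODE vM21 and promoters from RefSeq (GRCm38.p6), each matched by gene.

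The limits of the study on spots, 500 UMIs and 250 genes, were kept. Areas came from Leiden clustering (leidenalg 0.10.2, resolution 1, 2000 variable genes, 30 principal components, 20 neighbours, scikit-learn 1.9.0, Python 3.11.15) with 167 features kept out, including the 76 members, and were named from fixed marker lists. Doublet calling does not apply to spots. UMIs were summed per area and section and tested in edgeR 4.0.16 under R 4.3.3 by quasi-likelihood, after filterByExpr and TMM, with Benjamini-Hochberg adjustment over all tested genes, and called at an adjusted p under 0.05 and at least 1.2-fold. Section totals ran from 34982061 to 90096877 UMIs. The methods were tested on simulated data, in which 90.5% of genes changed 1.5-fold in the relay thalamus were recovered, with 11 false calls. For a 2-fold area by diet term 74.5% were recovered, with 13 false calls. For a 1.5-fold change between diets in the dentate gyrus 33.5% were recovered, with 2 false calls.

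Named genes are all members called between diets, the 5 largest whole-section differences in each direction with sections that do not overlap, the 12 widest and 5 narrowest over areas, all isoform families, members that failed the filter, and the 2 highest and lowest called in each area. Members that were called between diets with a section left out, and other examples of a complex, were chosen after their values were seen. The members and gene lists were chosen with earlier results of these data known. Alternatives were DESeq2 1.42.0, library size alone, no filter on low counts, spots thinned to 5000 UMIs, Leiden resolution 0.5, areas set by marker score, the same make-up in each section, a replicate block and each section left out.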

Additional observations from a re-analysis of the deposited data

How the results depend on the processing

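Between the diets, the 9 members named with sections that do not overlap kept their direction under every alternative run, except Ndufb2 with spots thinned to 5000 UMIs (0.019 on the log2 scale) and Cox7b2 with the same make-up of areas in each section (0.078). They were chosen for sections that do not overlap, so leaving out 1 section could not turn the direction of their CPM. The kept direction is therefore no support for a difference. Leaving out 1 section gave between 0 and 7 called members over the whole section, between 0 and 36 called pairs within areas and a median member difference between -0.037 and 0.069, with the extremes set by HF replicates 1 and 2. It gave 0 members with an area by diet term, between 225 and 255 called pairs of a member and an area, and a difference in the share of UMIs between 5.31e-05 and 0.0667 percentage points. Areas set by marker score gave 1 called pair between the diets. Called pairs of a member and an area, 234 in the report, fell to 131 with thinned spots and to 129 with areas set by marker score. Fewer UMIs enter the test after thinning, which also leaves out spots under 5000 UMIs. That kept 2687 of 3197 spots in HF replicate 1 and 3589 of 3598 in MF replicate 1. The cause of either fall was not tested. DESeq2, library size alone and no filter on low counts gave 0 called members between the diets over the whole section and 0 pairs within areas.

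The replicate numbers of the labels do not state a pairing, and with a replicate block 0 members were called over the whole section and 0 pairs within areas (24 at an unadjusted p under 0.05, 28 without the block). Deviations of same-numbered sections correlated at -0.20 over 14971 genes, and with the crossed pairing, added after seeing the data, the counts were again 0 and 0. With 2 sections per diet and small areas such as the choroid plexus, depth limits what single counts can show. Leaving mitochondrially encoded features out of the total was not run, since there were 0.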
